A study of Mus musculus with 4 samples.

Results

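The genes described here are 10 brakes and sensitivity controls of Wnt signalling: Rnf43, Znrf3, Nkd1, Nkd2, Dkk1, Notum, Apcdd1, Kremen1, Lgr4 and Lgr5. They were chosen by name, each matched 1 row of the deposited table, and they are 10 of its 46603 gene IDs. The table compares polyadenylated RNA of mouse embryonic stem cells of 2 genotypes, wild type (Gsk3a+/+;Gsk3b+/+) and double knockout (Gsk3a-/-;Gsk3b-/-), with 2 biological replicates of each. All cells grew with 15% serum and 1000 units/mL of leukaemia inhibitory factor over irradiated mouse fibroblasts, so RNA of feeder cells can be present in every library. The sample labels give embryonic day 16 as the age. The labels do not say how the alleles were made, from how many clones each genotype came, or whether the replicates came from separate cultures, so p-values may measure technical spread. The table names its groups A and B without saying which genotype is which, and every difference is therefore stated for group B over group A.

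Wnt ligands bind Frizzled and LRP receptors at the cell surface and stop the destruction of beta-catenin, a step that needs the kinase GSK-3. Stabilised beta-catenin acts with TCF/LEF factors in the nucleus, and several of the genes it switches on restrain the pathway again. RNF43 and ZNRF3 are membrane E3 ubiquitin ligases that remove Frizzled receptors from the surface. R-spondins, bound by LGR4, LGR5 or LGR6, take these ligases away and so raise the sensitivity of a cell to Wnt. DKK1 is a secreted antagonist that binds LRP5 and LRP6, and Kremen proteins are its co-receptors. NOTUM is a secreted enzyme that strips the lipid from Wnt ligands, APCDD1 is a membrane glycoprotein that inhibits the pathway at the surface, and the Naked cuticle proteins NKD1 and NKD2 bind Dishevelled inside the cell.

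Promoter sequence is shown for the 3 genes with the largest differences, because they are direct or proposed targets of beta-catenin and TCF/LEF. RefSeq windows of 300 bases, 250 before and 50 after a transcription start on GRCm38.p6, the assembly that mm10 denotes, were on hand for 5 of the 10 genes (6 windows, since Rnf43 has a second start). They were searched on both strands for 7 letters of the TCF/LEF core, CTTTG followed by A or T at both next positions. The Dkk1 window held 2 matches, at 117 and 98 bases before the start, both on the strand of the gene. At least 1 match was present in 16.9% of the 32851 windows in the table and at least 2 in 1.94%. The windows of Rnf43, Nkd1, Nkd2 and Lgr4 held no match, which says only that these letters are not in those windows. Capitals mark the matches, and the run printed for Dkk1 is the 30 bases around them, which GENCODE, whose Dkk1 gene starts farther upstream, annotates as an untranslated part of an exon.
Dkk1 (chr19:30549586-30549615, minus strand): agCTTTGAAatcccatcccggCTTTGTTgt
Rnf43 (chr11:87662837-87663086, plus strand): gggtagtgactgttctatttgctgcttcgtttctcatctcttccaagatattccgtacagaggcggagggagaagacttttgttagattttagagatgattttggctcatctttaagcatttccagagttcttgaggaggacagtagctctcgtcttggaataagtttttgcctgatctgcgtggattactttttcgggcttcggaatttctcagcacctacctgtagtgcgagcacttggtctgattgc
Nkd1 (chr8:88527383-88527632, plus strand): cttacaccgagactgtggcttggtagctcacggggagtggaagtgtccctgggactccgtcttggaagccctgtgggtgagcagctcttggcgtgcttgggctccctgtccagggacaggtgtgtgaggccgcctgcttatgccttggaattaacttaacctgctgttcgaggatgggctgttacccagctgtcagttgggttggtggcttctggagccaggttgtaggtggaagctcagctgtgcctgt
The Rnf43 run is the 250 bases before its upstream start and overlaps an exon of a non-coding retained-intron transcript in GENCODE. The Nkd1 run lies in an intron of a longer protein-coding transcript.

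Dkk1 and Rnf43 rose in group B, Nkd1 came close to the authors' threshold, and Lgr4 was the gene with the clearest difference in the other direction. In the comparison that the authors' deposited table holds, 2 of the 10 genes passed an adjusted p of 0.05 as higher in group B and 0 as lower, where 1.54% of all 30237 tested genes were called higher and 1.92% lower. At an unadjusted p under 0.05 the authors' deposited table has 4 of the 10 higher and 1 lower, beside 5.11% and 5.41% of all tested genes. The median log2 fold change of the 10 genes in the authors' deposited table was 0.30, beside 0.0100 for 20465 genes whose mean normalized count reached 10. With limma on counts recovered for each library (A1, A2, B1 and B2), 3 of the 10 passed as higher, namely Rnf43, Dkk1 and Nkd1, where 0.977% of 20465 genes did, and 0 as lower, where 1.03% did. All 10 genes passed the limma filter on low counts. Both B libraries lay above both A libraries for 5 of the 10 genes and below them for 1, and these shares were 26.4% and 26% among the 20465 genes. Limma called 0 of the 10 without A1 and 0 without A2, where it called 0 genes of the whole table, and 3 as higher without B1 and 3 without B2, where it called 2.17% and 2.69% of genes higher. As lower it called 0 of the 10 in both, where 2.7% and 2.74% of genes were. At an unadjusted p under 0.05, limma without A1 had 4 of the 10 higher and 1 lower, beside 5.96% and 5.87% of genes. Without A2 it had 3 higher and 0 lower, beside 5.19% and 4.74% of genes.

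**Figure D1:**
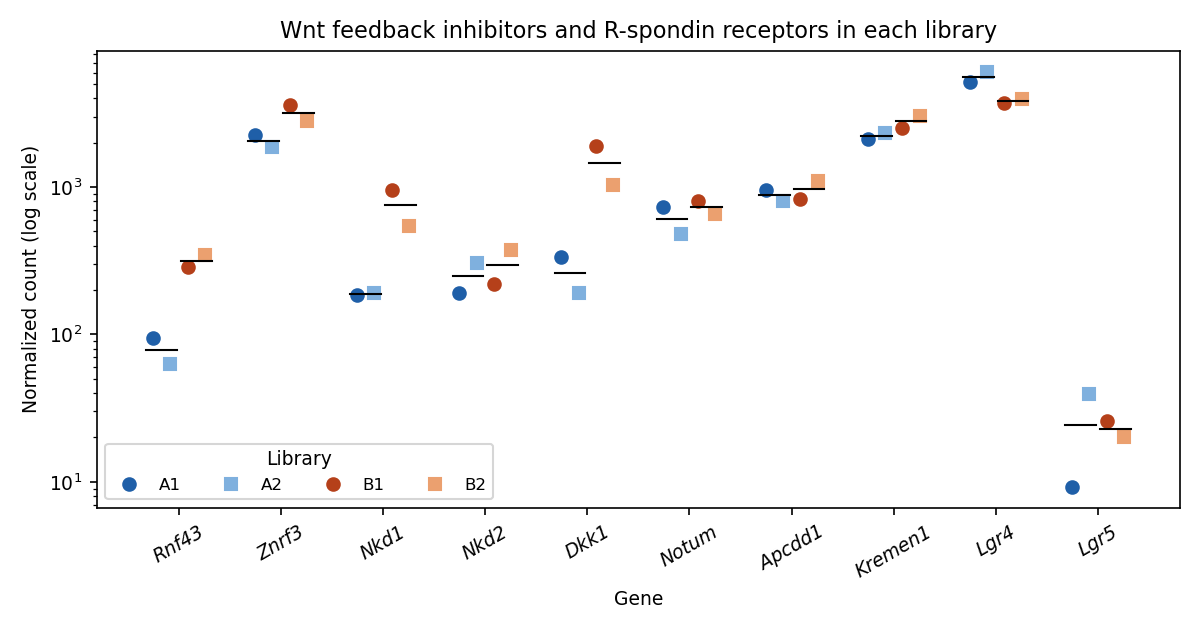
Normalized count (log axis) of each of the 10 genes in the 4 recovered libraries, with group A in blue, group B in orange and a black line at each group's mean. The 2 B libraries lie above both A libraries for Rnf43, Znrf3, Nkd1, Dkk1 and Kremen1 and below them for Lgr4.

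Library totals ranged from 112655210 to 146326307 counts. Of the targeted genes, Gsk3a was lower in group B and Gsk3b was not called, with log2 fold changes of -2.14 and -0.22 in the authors' deposited table. The labelled cell type had its markers: all 10 pluripotent cell markers had counts in every library, and their sum ranged from 812803 to 942248 normalized counts. Of the 10, 6 were lower in both B libraries and 0 higher, beside 26% and 26.4% of the 20465 genes tested with limma. The authors' deposited table and limma each called 1 of these 10 markers lower, beside 1.92% and 1.03% of the genes each tested.

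Of the E3 ligases, Rnf43, the rarer one, rose in group B, and Znrf3 passed neither test. Rnf43 (ENSMUSG00000034177, chromosome 11, 87662722 to 87735539, plus strand, mm10) had 94.0 and 63.3 normalized counts in A1 and A2, and 286 and 344 in B1 and B2. Each B library held at least 3 times the count of either A library. Rnf43 rose 4.01-fold in the authors' deposited table (log2 of 2.00, adjusted p 2.39e-07), where its p-value ranked 118. The limma log2 difference was 2.01 (SE 0.30, 95% interval 1.27 to 2.75, adjusted p = 0.0416). It was 2.29 without A1 (adjusted p = 0.180) and 1.73 without A2 (adjusted p = 0.323). Rnf43 rested on few reads in group A, 102 in A1 (exact 95% Poisson interval 83.2 to 124) and 64 in A2 (49.3 to 81.7). Group B gave 312 reads in B1 (278 to 349) and 291 in B2 (259 to 326), and these intervals cover counting error only.

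Znrf3 (ENSMUSG00000041961, chromosome 11, 5276324 to 5444847, minus strand), the paralog of Rnf43, had 2261 and 1865 normalized counts in A1 and A2 and 3586 and 2826 in B1 and B2. The groups did not overlap, but the gap between the nearest libraries was smaller than the distance between the B libraries. Znrf3 is 1.55-fold higher in the authors' deposited table, but its adjusted p of 0.119 misses the threshold. The limma interval of the log2 difference was 0.20 to 1.07 (estimate 0.63, SE 0.18, adjusted p = 0.128).

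Per kilobase of merged exons, a scale on which different genes can be compared, Znrf3 stayed the main ligase transcript in every library. The level of Znrf3 was 20.0 and 24.5 times that of Rnf43 in A1 and A2, and 10.4 and 6.82 times in B1 and B2. Rnf43 thus made up 4.76% and 3.92% of the summed ligase level in A1 and A2, and 8.76% and 12.8% in B1 and B2. The log2 ratio of Rnf43 to Znrf3 was 1.39 higher in group B (within-group SD 0.34). Its two-sided exact permutation p was 0.333, the smallest that 2 libraries against 2 can give. The summed level of both ligases was 301 and 246 normalized counts per kilobase in A1 and A2, and 498 and 410 in B1 and B2, a ratio of group means of 1.66.

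**Figure D2:**
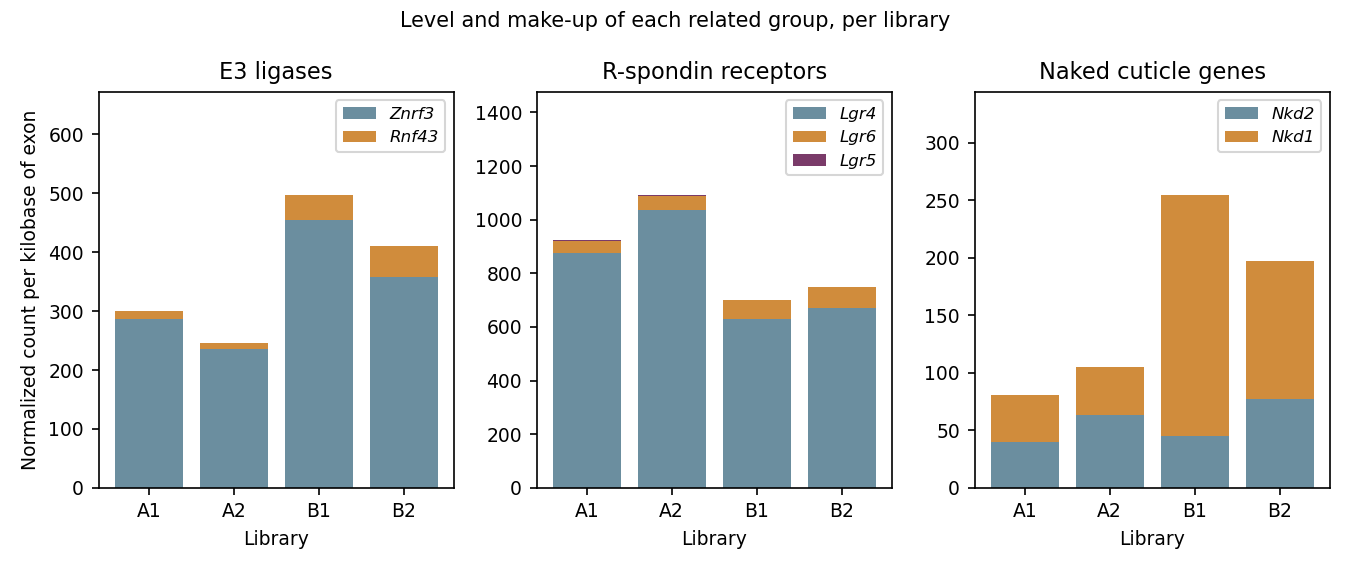
Normalized count per kilobase of merged exons in each library, stacked by gene, for the E3 ligases, the R-spondin receptors with Lgr6, and the Naked cuticle genes. Rnf43 is the smaller part of the ligase bar in every library, Lgr5 is barely visible, and the Nkd1 part is larger in B1 and B2 than in A1 and A2.

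Among the intracellular inhibitors, Nkd1 was higher in group B and Nkd2 was mixed. Nkd1 (ENSMUSG00000031661, chromosome 8, 88521354 to 88594884, plus strand) had 186 and 191 normalized counts in A1 and A2, and 955 and 547 in B1 and B2. The A libraries were nearly equal, whereas B1 was 1.75 times B2. Nkd1 is 3.99-fold higher in the authors' deposited table, where its adjusted p of 0.0555 just misses the threshold. With limma the log2 difference was 1.93 (SE 0.30, 95% interval 1.19 to 2.68, adjusted p = 0.0456), which passed. Over the limma settings with all libraries the adjusted p of Nkd1 ran from 0.0410 to 0.0459. The limma log2 difference of Nkd1 was 1.92 without A1 (adjusted p = 0.236), 1.95 without A2 (0.332), 1.53 without B1 (0.0326) and 2.34 without B2 (0.00777).

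Nkd2 (ENSMUSG00000021567, chromosome 13, 73818534 to 73847631, minus strand) had 191, 305, 219 and 372 normalized counts in A1, A2, B1 and B2. The libraries of the groups interleaved, and the spread within each group was larger than the difference between them. The authors' deposited table has Nkd2 at 1.19-fold (adjusted p of 1). The limma interval ran from a 0.636-fold to a 2.21-fold level, so a difference of either sign remains within it. Per kilobase, Nkd1 made up 50.8% and 39.9% of the summed Nkd level in A1 and A2, and 82.2% and 60.9% in B1 and B2. The log2 ratio of Nkd1 to Nkd2 was 1.69 higher in group B (within-group SD 0.85, two-sided exact permutation p = 0.333).

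Dkk1 had the largest difference of the 10 genes. Dkk1 (ENSMUSG00000024868, chromosome 19, 30545863 to 30549665, minus strand) had 334 and 191 normalized counts in A1 and A2, and 1894 and 1040 in B1 and B2. The lowest B library held about 3 times the highest A library, yet the libraries of each group differed as well, by 1.75 times in group A and 1.82 times in group B. Dkk1 rose 5.59-fold in the authors' deposited table (log2 of 2.48, adjusted p 0.0371). The limma log2 difference was 2.47 (SE 0.39, 95% interval 1.52 to 3.42, adjusted p = 0.0453). It was 2.87 without A1 (adjusted p = 0.180), 2.07 without A2 (0.319), 2.04 without B1 (0.0369) and 2.90 without B2 (0.0116).

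Kremen1, the Dkk1 co-receptor (ENSMUSG00000020393, chromosome 11, 5191552 to 5261558, minus strand), had 2114 and 2316 normalized counts in A1 and A2, and 2520 and 3064 in B1 and B2. The groups did not overlap, by a margin smaller than the spread between the B libraries. Kremen1 is at 1.26-fold in the authors' deposited table (adjusted p of 0.672). The limma interval of its ratio was 0.970 to 1.63.

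Notum and Apcdd1 did not separate the groups. Notum (ENSMUSG00000042988, chromosome 11, 120653788 to 120661175, minus strand) had 730, 484, 810 and 656 normalized counts in A1, A2, B1 and B2, with B2 below A1. The fold change of Notum in the authors' deposited table was 1.21 (adjusted p of 1), and the limma interval of its ratio was 0.793 to 1.90. Notum shares 708 exonic bases with the antisense gene Notumos and 210 with Myadml2os on the other strand, and whether the authors counted by strand is not given, so its reads cannot be told apart from theirs with certainty. Those genes had mean normalized counts of 75.0 and 15.2. Apcdd1 (ENSMUSG00000071847, chromosome 18, 62922231 to 62961179, plus strand) had 958, 810, 832 and 1104 normalized counts, with the B libraries on either side of A1. The authors' deposited table gives Apcdd1 a fold change of 1.10 (adjusted p of 1), and the limma interval of its ratio was 0.766 to 1.55.

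**Figure D3:**
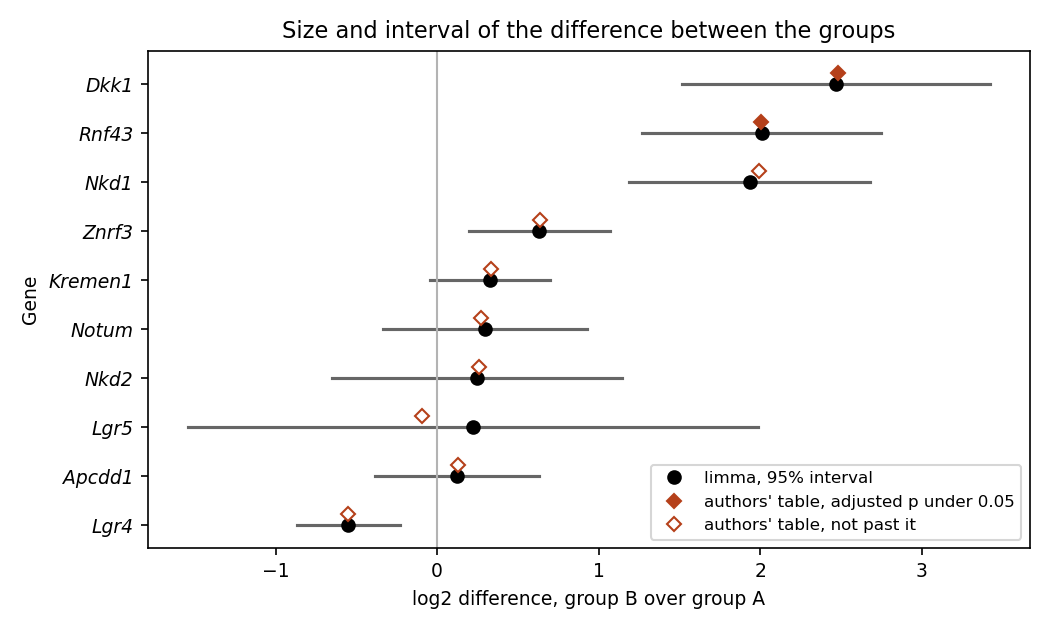
Log2 difference of group B over group A for each gene, as limma estimates with 95% intervals (black) and as the authors' values (diamonds, filled where the adjusted p is under 0.05). The intervals of Dkk1, Rnf43, Nkd1 and Znrf3 lie above 0, that of Lgr4 lies below 0, and those of the other 5 genes include 0.

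Of the R-spondin receptors, Lgr4 carried most of the level and was lower in group B, short of the threshold. Lgr4 (ENSMUSG00000050199, chromosome 2, 109917647 to 110014257, plus strand) had 5153 and 6094 normalized counts in A1 and A2, and 3714 and 3945 in B1 and B2. Both B libraries were below both A libraries, and the gap was larger than the spread within either group. The authors' deposited table has the mean of group A 1.47-fold above that of group B (log2 of -0.55), with p-values of 0.00285 before and 0.0728 after adjustment. The limma estimate was -0.55 (SE 0.13, 95% interval -0.87 to -0.23, adjusted p = 0.0942). Lgr4 was thus the only one of the 10 genes with an unadjusted p under 0.05 in the lower direction.

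Lgr5 (ENSMUSG00000020140, chromosome 10, 115450311 to 115587780, minus strand), the marker of Wnt-dependent adult stem cells in the gut, was barely detected. Its reads numbered 10 and 40 in A1 and A2, with exact 95% Poisson intervals of 4.80 to 18.4 and 28.6 to 54.5. Those in B1 and B2 numbered 28 and 17, with intervals of 18.6 to 40.5 and 9.90 to 27.2. Group A held both the lowest and the highest value, and its intervals did not overlap. The log2 fold change of Lgr5 was -0.09 in the authors' deposited table and 0.22 in limma (95% interval -1.54 to 1.98), so no direction can be given. Per kilobase Lgr5 amounted to 0.102% to 0.395% of the summed Lgr4 and Lgr5 level in the 4 libraries. Its log2 ratio to Lgr4 was 0.80 higher in group B (within-group SD 0.96, exact permutation p = 0.667) and -0.13 without A1.

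The third receptor, Lgr6, had 318 and 369 normalized counts in A1 and A2 and 463 and 525 in B1 and B2, at 1.44-fold in the authors' deposited table (adjusted p of 0.406). Per kilobase, Lgr6 had 46.4 and 53.8 in A1 and A2 and 67.6 and 76.6 in B1 and B2. Lgr4 had 876 and 1036 in A1 and A2 and 631 and 671 in B1 and B2. The summed level of Lgr4, Lgr5 and Lgr6 was 923 and 1093 normalized counts per kilobase in A1 and A2, and 701 and 749 in B1 and B2. The summed ligase level, set against this summed receptor level in the same library, was 0.326 and 0.225 in A1 and A2 and 0.710 and 0.548 in B1 and B2, with no overlap between the groups. These sums were chosen after the values were seen and were not tested. The R-spondin genes themselves, which encode the ligands of these receptors, were low and none passed. Rspo1 had 221 and 256 normalized counts in A1 and A2 and 154 and 212 in B1 and B2, and Rspo4 between 43.7 and 86.0 over the 4 libraries. Rspo2 and Rspo3 varied most within group B, where B2 held 8.64 and 8.86 times the count of B1, and in group A, where A1 held 2.18 and 2.24 times the count of A2.

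The libraries of a group were not alike in their RNA level of markers of other cell types, and some of the 10 genes had the same order of libraries within a group. Summed normalized counts of 17 extraembryonic endoderm markers were 148890 and 112400 in A1 and A2 and 452867 and 239010 in B1 and B2. Of the 17, 10 were higher and 2 lower in both B libraries, beside 26.4% and 26% of the 20465 genes tested with limma. The authors' deposited table called 0 of the 17 higher and 0 lower, beside 1.54% and 1.92% of all tested genes. Limma called 3 of the 17 higher and 0 lower, beside 0.977% and 1.03% of the genes it tested. B1 exceeded B2 in 16 of 17 and A1 exceeded A2 in 16 of 17. The Afp count was 0 in at least 1 library, and no other marker was at 0. The B1 to B2 ratio was 1.89 for the endoderm sum, 1.82 for Dkk1, 1.75 for Nkd1, 1.28 for Lgr5, 1.27 for Znrf3 and 1.23 for Notum. It was 0.941 for Lgr4, 0.831 for Rnf43, 0.822 for Kremen1, 0.754 for Apcdd1 and 0.588 for Nkd2. In group A the ratio of A1 to A2 was 1.32 for the endoderm sum, 1.75 for Dkk1, 1.51 for Notum, 1.48 for Rnf43, 1.21 for Znrf3 and 1.18 for Apcdd1. It was 0.975 for Nkd1, 0.913 for Kremen1, 0.846 for Lgr4, 0.626 for Nkd2 and 0.233 for Lgr5. The part of endoderm-like cells in the results of the 10 genes was not tested. In bulk RNA, fewer cells of a type and less RNA per cell cannot be told apart.

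Feeder fibroblast markers followed another order, with sums of 139790, 66154 and 36490 normalized counts in A1, A2 and B1 and 199093 in B2. In all 16 of them B2 exceeded B1 and A1 exceeded A2, and 0 of 16 separated the groups. Of the genes above, Rspo2 and Rspo3 had this order of libraries. Rnf43 and Apcdd1 also had B2 above B1 and A1 above A2. Rnf43 was 1.20 times as high in B2 as in B1, where the feeder sum was 5.46 times as high. In A1 it was 1.48 times as high as in A2, where the feeder sum was 2.11 times as high. For Apcdd1 these ratios were 1.33 and 1.18. Macrophage markers summed to 2992 to 3533 normalized counts in the 4 libraries, with 11 of 13 higher and 2 of 13 lower in both B libraries. Primitive streak markers summed to 1877, 2193, 4243 and 2537 in A1, A2, B1 and B2, with 3 of 9 higher and 3 of 9 lower. Of the 20465 genes tested with limma, 26.4% were higher and 26% lower in this way. The authors' deposited table called 2 macrophage markers higher and limma 1, and both called 0 primitive streak markers. Among all genes tested, 1.54% were called higher and 1.92% lower in the authors' deposited table, and 0.977% and 1.03% with limma. No marker of these 3 lists was at 0 in any library, and their part in the results was not tested.

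**Figure D4:**
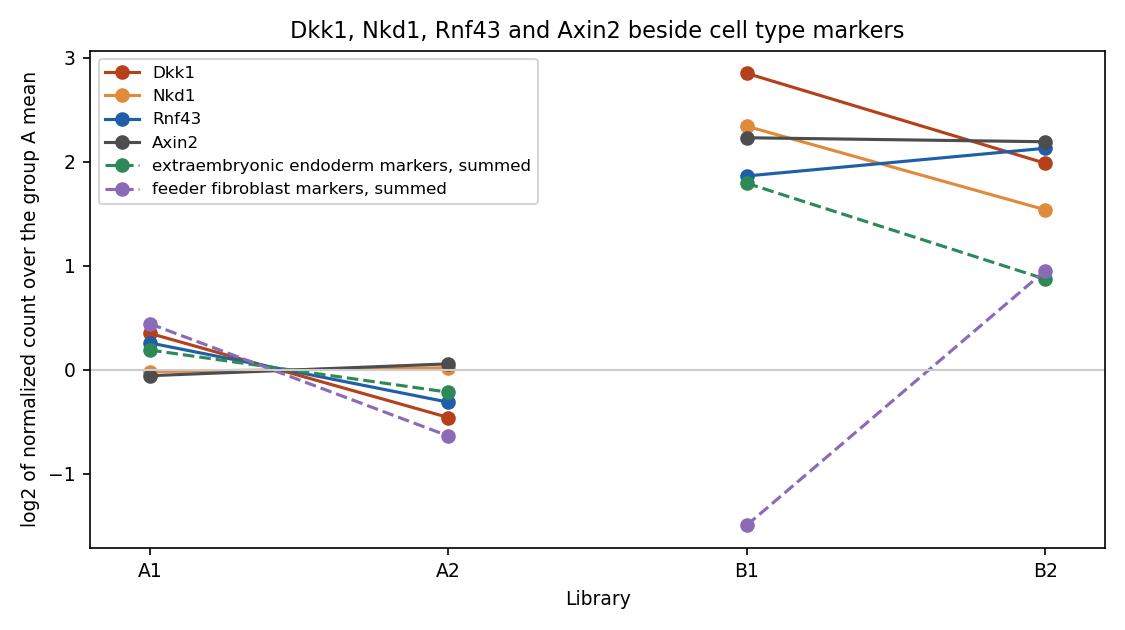
Log2 of the normalized count in each library over the mean of group A, for Dkk1, Nkd1, Rnf43 and Axin2 (solid) and for the summed endoderm and feeder markers (dashed), joined within a group only. Dkk1, Nkd1 and the endoderm sum are higher in B1 than in B2, Rnf43 and the feeder sum are higher in B2, and Axin2 is nearly level between them.

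The levels of the 10 genes spanned a wide range. Averaged over all libraries, Lgr4 had the highest level with 803 normalized counts per kilobase, followed by Dkk1 (356), Znrf3 (334), Kremen1 (324), Notum (278), Nkd1 (103), Apcdd1 (71.9), Nkd2 (56.3), Rnf43 and Lgr5 (2.30). The mean level of Rnf43 was 12.0 for A libraries and 48.0 for B libraries. In group B the libraries of Dkk1 overlapped with those of Znrf3, the next in order, but lay above those of Kremen1 and Notum, while in group A Dkk1 (138 and 78.6 per kilobase in A1 and A2) lay below all 3. Znrf3 overlapped with Kremen1, and Kremen1 with Notum, in both groups. Apcdd1 and Nkd2 also overlapped in both groups, and Lgr4 with Dkk1 and Nkd2 with Rnf43 in group B only. By its mean, Dkk1 stood in place 5 of the 10 in group A and 2 in group B, and Nkd1 in place 8 and 6. Rnf43 stood in place 9 in both groups despite its rise. Among all genes with a count and an annotated length, the level of Lgr4 lay above 77.0% of genes, that of Rnf43 above 45.2% and that of Lgr5 above 19.4%.

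The other Wnt antagonists, measured as a setting for these genes, moved in both directions. Of 21 genes the authors' deposited table has 2 higher and 2 lower past the threshold, beside 1.54% and 1.92% of all tested genes. The median log2 fold change was -0.13 over the 18 that reached a mean of 10. Axin2, the scaffold of the destruction complex and a standard feedback target, went from 2251 and 2436 normalized counts in A1 and A2 to 11002 and 10714 in B1 and B2, in the authors' deposited table a rise of 4.63-fold (adjusted p 2.34e-27). The libraries of each group were nearly equal, unlike those of Dkk1 and Nkd1. Wif1, a secreted protein that binds Wnt ligands, had 24.0 and 7.91 normalized counts in A1 and A2 and 92.6 and 81.6 in B1 and B2 (adjusted p 0.00122, authors' deposited table). Sfrp5, a secreted Frizzled-related protein, fell from 194 and 241 normalized counts to 65.1 and 42.6 (adjusted p 1.61e-05), and Shisa3, which holds back Frizzled maturation, from 164 and 129 to 40.3 and 39.0 (adjusted p 0.000822), both by the authors' deposited table. With limma 1 of the 21 passed as higher and 1 as lower, Axin2 and Sfrp5, beside 0.977% and 1.03% of the 20465 genes tested. Wif1 (adjusted p = 0.0808) and Shisa3 (adjusted p = 0.0503) missed the limma threshold.

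Of the genes around the ligases and R-spondin receptors, 1 was called. Over all 30237 tested genes, the authors' deposited table called 1.54% higher and 1.92% lower. Among 20 R-spondin, Frizzled, LRP, Dishevelled and Lgr6 genes, the authors' deposited table has 1 higher and 0 lower past the threshold (median log2 fold change 0.06). It was Fzd10, a Frizzled receptor, with 1663 and 1770 normalized counts in A1 and A2 and 3732 and 3373 in B1 and B2 (2.07-fold, adjusted p 6.94e-06, authors' deposited table; limma log2 difference 1.05, SE 0.13, adjusted p = 0.0312). Of 27 other canonical Wnt targets, 6 were higher and 1 lower in the authors' deposited table (median log2 fold change 0.60 over the 25 that reached a mean of 10). The mesoderm factor T, the transcription factor Sp5, and the ephrin receptors Ephb2 and Ephb3 rose 17.3-fold, 11.3-fold, 2.05-fold and 1.84-fold in the authors' deposited table, and the growth regulator Myc fell to 0.613 of its mean in group A. With limma 4 of the 27 passed as higher and 1 as lower, beside 0.977% and 1.03% of the 20465 genes tested. Ephb2 (adjusted p = 0.0503) missed the limma threshold. The list of Wnt targets was chosen with earlier results of these data known, so its direction is not independent evidence.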

How the data were processed

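RNA sequencing was available for 4 samples as 1 table comparing a group A with a group B, and the members and gene lists were chosen with earlier results of these data known. Per the submitters' processing notes, reads were aligned with STAR to mm10 and tested with DESeq; the sources used here do not give the read counter, strand setting or annotation release. Per the file headers, the deposited values are each group's mean normalized count (a signal, reads divided by a size factor), their ratio (fold change) and its log2, and p-values before and after adjustment. The authors' deposited test was taken unchanged, at a threshold of 0.05.

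Whole reads of each library were recovered from the group means, which are sums of whole multiples of 2 steps, for each of the 28616 genes detected in group A and the 28353 in group B (tolerance 1e-06). Where a second pair of counts lay within the tolerance (1700 and 5 genes), the closest was taken. The names A1, A2, B1 and B2 are not the labels' replicate numbers. These normalized counts were tested two-sided with limma 3.58.1 (R 4.3.3, trend option) as log2(value + 1), for genes whose mean reached 10, and adjusted by Benjamini-Hochberg. The added 1 pulls the folds of low genes towards no change, but limma values were not always below the authors' ones. Wif1 had a log2 difference of 2.56 in limma and 2.45 in the authors' deposited table. The recovery was decided after the table was seen, so limma is an alternative to the authors' test. Recovery and limma were run on simulated data with the same relative spread for every gene. Real genes need not share that spread, so the run does not measure the error rate of limma here.

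Levels are per kilobase of merged GENCODE M21 exons, matched for 46091 gene IDs. Promoter windows are from RefSeq. Named were all 10 genes, Gsk3a, Gsk3b, Axin2, Lgr6, Rspo1 to Rspo4, and up to 5 genes past the authors' threshold from each pathway list. Alternatives were other filters, pseudocounts, scalings, lengths and leaving out each library.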

Additional observations from a re-analysis of the deposited data

How the results depend on the processing

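The direction of Rnf43, Dkk1, Nkd1, Znrf3, Kremen1 and Lgr4 held under all limma settings. Of 109 limma values of single genes, 83 kept direction and side of the threshold, 4 missed it (Rnf43 and Dkk1 without A1 and without A2), 9 passed it in place of missing it (all Nkd1) and 13 turned direction. The 13 were of genes with no call: without 1 library Nkd2 ran from -0.14 to 0.63, Notum from -0.0015 to 0.59 and Apcdd1 from -0.081 to 0.33, and Lgr5 was at 0.22 with all libraries and with no filter, 0.14 with pseudocount 5, 0.24 with pseudocount 0.5, 0.21 by total counts, 0.20 by the upper quartile, and from -0.77 to 1.22 without 1 library. The number of the 10 genes called higher ran from 0 to 3 without 1 library. Of the other antagonists, limma called 2, or 1 with no filter and 1 with pseudocount 0.5, against 4 by the authors. Under each of the other settings with all libraries it called 3. With all libraries it called 1 receptor gene under every setting and from 5 to 7 other Wnt targets. Over all genes tested, these settings called between 193 and 253 genes higher and between 201 and 317 lower. Leaving out A1 or A2 rests the spread on the B libraries alone, and limma then called 0 genes of the whole table (2420 and 2034 at an unadjusted p under 0.05). The log2 ratio of Lgr5 to Lgr4 ran from -0.13 to 1.73 without 1 library. By the longest transcript instead of merged exons, Dkk1 took place 4 and Kremen1 place 2 in level. No paired analysis was possible because the table's columns carry no replicate numbers. The lowest depth was that of Lgr5, with 10 to 40 reads a library, and its A1 and A2 differed beyond counting error.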

Other observations

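Among the genes on which Wnt ligands depend for export and for their spread along the cell surface, 0 of the 5 with a count passed in the authors' deposited table (limma also called 0). Of all tested genes, the authors' deposited table called 1.54% higher and 1.92% lower. Wls, the carrier that brings Wnt ligands to the surface, had 2395 and 1358 normalized counts in A1 and A2 and 1193 and 3860 in B1 and B2, the order of libraries seen for the feeder markers. Gpc1, a glypican, had 3022, 3516, 2786 and 4309. Both were named after their values were seen. Porcn, which adds the lipid that NOTUM removes, and the glypicans Gpc3 and Gpc4, like the Wnt target Cdx4, are listed at 0 in all 4 libraries. They lie on chromosome X, and all 2601 gene IDs of chromosome X, 1570 of Y and 37 of the mitochondrial genome are listed at 0, so these zeros say nothing about expression. None of the 10 genes lies on these chromosomes.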
